A study of Mus musculus with 6 samples.

Results

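The SLAM family receptors, the ligand Cd48 and the adaptor Sh2d1a were measured in mouse samples labelled as CD4+CD25+ T cells. The measurement used 12 probe sets of the Affymetrix Mouse430a array, of 22690 on the array. They were all the probe sets that the platform annotation ties to a single symbol among 8 genes: Sh2d1a, Slamf1, Ly9, Cd84, Slamf6, Slamf7, Cd244a and Cd48. Slamf1 had 3 probe sets, Slamf6 and Cd244a had 2 each, and the other genes had 1 each. The 6 samples were 3 from wild type mice and 3 labelled HDAC3-fl/fl_FOXP3cre, that is, carrying floxed Hdac3 alleles together with a Cre that bears the name of Foxp3. Both groups have the strain background C57BL6, and age, sex and treatment are not given in the sources used here. Hdac3 encodes a histone deacetylase, Foxp3 is the factor that defines regulatory T cells, and the series asks what loss of Hdac3 does to these cells. The title and genotype of the second group name HDAC3, but its source field names HDAC11. Values are log2 intensities after robust multiarray averaging (RMA), a difference is HDAC3 fl/fl FOXP3cre minus wild type, and every mean is given ± SD with n = 3. The labels do not state whether each sample is from its own animals, so the p-values refer to the spread among these 6 samples, which can be technical.

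SLAM family receptors are surface proteins of blood cells that contact one another across cell pairs. Most bind a second copy of themselves on the opposite cell, whereas Cd244a binds Cd48, a lipid-anchored protein that also binds Cd2. Tyrosine motifs in the tails of several of these receptors, though not of all, recruit SAP, the small adaptor encoded by Sh2d1a. SAP brings in the kinase Fyn. In T cells SAP is known for its part in help to B cells and in the development of natural killer T cells, and in people its loss causes an X-linked immune disease.

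The family did not move as a unit. Sh2d1a and Slamf1 were lower in HDAC3 fl/fl FOXP3cre samples, Cd84, Slamf7 and Cd244a were higher, Cd48 was slightly lower, Ly9 did not pass the test, and the 2 Slamf6 probe sets went opposite ways. Of the 12 probe sets 5 were higher and 6 lower at a limma adjusted p below 0.05, beside 20.1% and 37.4% of all 22626 probe sets tested. With at least a 2-fold difference added, 4 were higher and 3 lower, beside 7.91% and 4.33%. The 3 values of one group lay apart from the 3 of the other in 12 of 12 probe sets, beside 64.6% of all. The median difference was -0.20 over the 12 probe sets and -0.17 over all probe sets. The first median counts Slamf1 with 3 sets. By lead probe set, the brightest of each gene, 4 of the 8 genes were higher and 3 lower, beside 22% and 38% of all genes. Their median was 0.30, against -0.17 over all genes, so the sign of the median depends on how sets are counted. Slamf6 is among the 4 by its higher set.

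**Figure D1:**
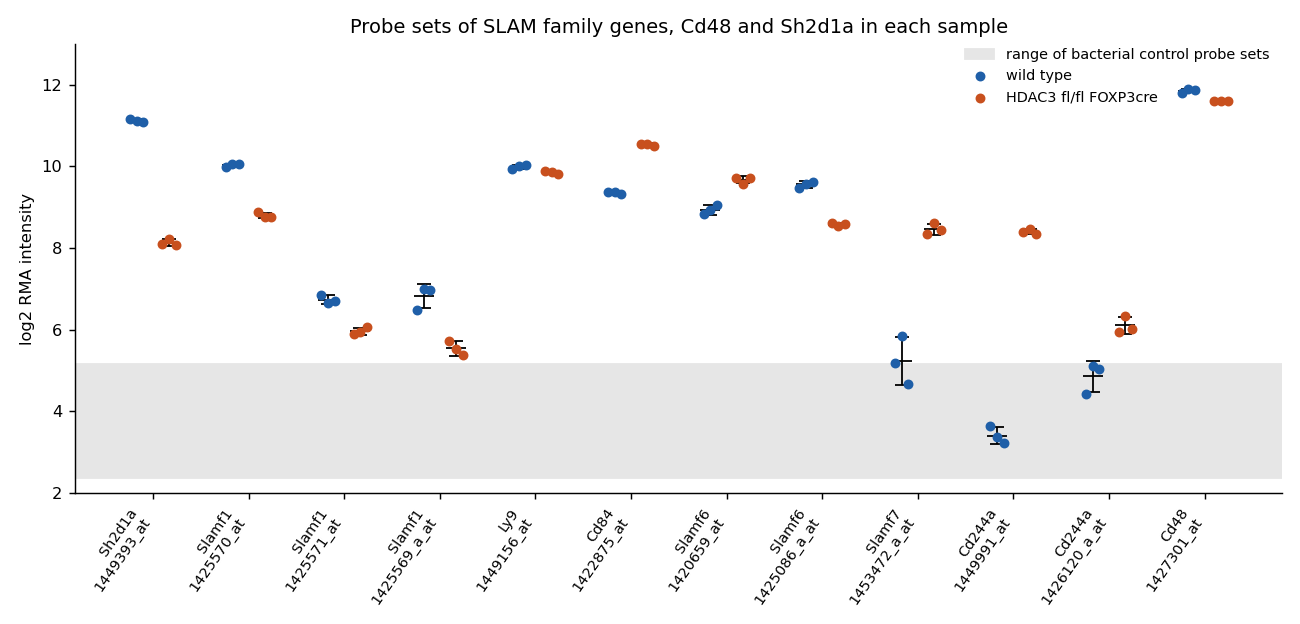
Log2 RMA intensity (vertical axis) of each of the 12 probe sets in the 3 wild type and 3 HDAC3 fl/fl FOXP3cre samples, with points for samples, a horizontal tick and bars for mean ± SD, and a grey band for the range of 27 bacterial control probe sets, 2.37 to 5.16. Sh2d1a drops from about the 11.1 level to 8.14, and Cd244a probe set 1449991_at rises from inside the band to 8.41.

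Regulatory sequence is shown for 4 receptors that changed past 2-fold, Cd84, Slamf7 and Cd244a among those that were higher and Slamf1 among those that were lower. Windows of 300 bases, from 250 before to 50 after the annotated start of the gene, came from RefSeq (GRCm38.p6), which matched 6 of the 8 genes. The genes without a window in the table were Sh2d1a and Ly9. Each is written 5′ to 3′ along the gene, with a match to the AP-1 motif TGANTCA in capitals.
Cd84, GRCm38.p6 chr1:171839447-171839746, plus strand: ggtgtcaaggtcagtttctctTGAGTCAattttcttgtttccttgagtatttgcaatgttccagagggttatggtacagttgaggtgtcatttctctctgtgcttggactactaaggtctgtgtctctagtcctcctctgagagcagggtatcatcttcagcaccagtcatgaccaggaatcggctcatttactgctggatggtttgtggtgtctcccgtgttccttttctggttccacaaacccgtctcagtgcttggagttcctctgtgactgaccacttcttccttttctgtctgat
Slamf7, GRCm38.p6 chr1:171648950-171649249, minus strand: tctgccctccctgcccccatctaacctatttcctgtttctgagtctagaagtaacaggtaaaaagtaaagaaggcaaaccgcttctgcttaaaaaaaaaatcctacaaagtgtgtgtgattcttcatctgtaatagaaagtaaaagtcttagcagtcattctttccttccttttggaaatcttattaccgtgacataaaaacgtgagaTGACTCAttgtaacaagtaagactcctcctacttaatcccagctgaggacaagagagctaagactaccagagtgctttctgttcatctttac
Cd244a, GRCm38.p6 chr1:171558943-171559242, plus strand: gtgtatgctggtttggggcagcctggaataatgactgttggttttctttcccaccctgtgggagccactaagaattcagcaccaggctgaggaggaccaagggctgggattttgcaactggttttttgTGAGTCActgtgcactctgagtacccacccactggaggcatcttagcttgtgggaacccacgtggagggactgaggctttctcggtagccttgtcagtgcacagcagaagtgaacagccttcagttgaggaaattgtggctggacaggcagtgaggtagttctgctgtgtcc
Slamf1, GRCm38.p6 chr1:171766882-171767181, plus strand: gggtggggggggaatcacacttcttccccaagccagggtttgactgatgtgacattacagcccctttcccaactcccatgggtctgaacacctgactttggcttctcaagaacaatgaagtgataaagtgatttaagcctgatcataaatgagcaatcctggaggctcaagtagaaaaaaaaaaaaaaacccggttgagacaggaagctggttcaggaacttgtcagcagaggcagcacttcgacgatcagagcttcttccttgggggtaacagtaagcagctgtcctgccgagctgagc
The motif was found in the windows of Cd84 (bases 22 to 28 of the window), Slamf7 (bases 209 to 215) and Cd244a (bases 129 to 135), and not in those of Slamf1, Cd48 and Slamf6. It was present in 7.81% of all 32851 windows of this length. It was singled out after the values were seen, from 19 motifs searched on both strands. The other 18 were GAGGAA and AGAGGAAG (PU.1), CAGGAA and CCGGAA (ETS), TGTGGT (RUNX), TTNNGNAA (C/EBP), AGATAA (for factors of the GATA family), CTTTGA (TCF), TATAAA (the core promoter box), TGACGTCA (CRE), CAGCTG and CACGTG (E-box), TTCNNNGAA (for factors of the STAT family), GGGCGG (the box of Sp1), GGAAA (NFAT), and the IRF, NF-kB and MARE motifs of 10 letters. AGAGGAAG contains GAGGAA, the MARE motif contains TGANTCA, and GGAAA can overlap the ETS and PU.1 motifs. Of these, CAGGAA was found in Slamf7, Cd48, Slamf1 and Cd84 (30.6% of all windows) and GAGGAA in Cd244a and Cd84 (28.3%). TGTGGT was found in Cd48 and Cd84 (16.8%), CAGCTG in Slamf7 and Slamf1 (16.3%), and CACGTG in Cd244a (7.15%). CCGGAA (14.9%) and CTTTGA (16%) were found in Cd48. TTNNGNAA was found in Cd244a, Slamf7, Slamf1 and Cd84 (40.7%), and GGAAA in Cd244a, Slamf7, Cd48, Slamf1 and Cd84 (61.3%). TTNNGNAA and GGAAA thus also matched all of Cd84, Slamf7 and Cd244a, together with Slamf1, which was lower. The remaining motifs matched no member window. A match says only that these letters are present.

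The adaptor Sh2d1a measured 11.17, 11.10 and 11.10 in wild type, against 8.10, 8.23 and 8.08 in the HDAC3 fl/fl FOXP3cre group. The groups were far apart, by 2.87 between their nearest samples, beside SDs of 0.038 and 0.079. Its mean went from 11.12 ± 0.038 to 8.14 ± 0.079, a fall of 7.92-fold (difference -2.98, SE 0.066, limma adjusted p = 5.77e-08). Only 0.0707% of all probe sets had a difference as low or lower. It remained above background in all 6 samples.

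Slamf1, a receptor that binds itself and signals through SAP, was lower in all 3 of its probe sets. The brightest, 1425570_at, measured 9.995, 10.05 and 10.06 in wild type, against 8.88, 8.76 and 8.77 in the HDAC3 fl/fl FOXP3cre group. The groups did not overlap, and the fall was 2.35-fold (difference -1.23, SE 0.063, limma adjusted p = 3.61e-06). Probe set 1425569_a_at measured 6.48, 7.001 and 6.99 against 5.74, 5.54 and 5.37, a difference of -1.27 (SE 0.16, limma adjusted p = 0.000406). Probe set 1425571_at measured 6.86, 6.65 and 6.71 against 5.89, 5.96 and 6.06, a difference of -0.77 (SE 0.080, limma adjusted p = 0.000148), short of 2-fold. The 3 sets share a direction and cite the same transcript accession, so they are not independent measurements of the gene.

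Ly9, a receptor of T and B cells that also binds itself, measured 9.94, 10.003 and 10.03 in wild type, against 9.88, 9.86 and 9.82 in the HDAC3 fl/fl FOXP3cre group. The samples of the groups did not overlap but were only 0.062 apart at the nearest, and the difference of -0.14 (95% interval -0.28 to -0.0013) did not pass (limma adjusted p = 0.0773). It was 0.065 with cyclic loess scaling (adjusted p = 0.374) and -0.30 with median centring (adjusted p = 0.00296), so its direction is not settled.

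Cd84, a self-binding receptor found on B cells, T cells, platelets and myeloid cells, was higher. It measured 9.38, 9.38 and 9.32 in wild type, against 10.55, 10.55 and 10.50 in the HDAC3 fl/fl FOXP3cre group. No sample of one group came near the other, and the rise was 2.26-fold (difference 1.17, SE 0.057, limma adjusted p = 2.90e-06).

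Slamf6, a self-binding receptor of T, B and natural killer cells that is made in several spliced forms, gave no single answer. Probe set 1420659_at measured 8.83, 8.93 and 9.07 in wild type, against 9.72, 9.58 and 9.72 in the HDAC3 fl/fl FOXP3cre group, higher by 0.73 (SE 0.083, limma adjusted p = 0.000224). Probe set 1425086_a_at measured 9.47, 9.57 and 9.63 in wild type, against 8.62, 8.53 and 8.58 in the HDAC3 fl/fl FOXP3cre group, lower by 1.97-fold (difference -0.98, SE 0.067, limma adjusted p = 1.67e-05). The groups did not overlap in either set, yet the gap between the sets changed sign. The mean of 1420659_at minus 1425086_a_at was -0.62 in wild type and 1.10 in the HDAC3 fl/fl FOXP3cre group. That is a change of 1.71 (exact two-sided permutation p = 0.1, the smallest that 3 against 3 allows). The first set cites NM_030710 and the second AF248636, and which transcripts each detects is not analysed here. The mean of both sets differed by -0.12 (limma adjusted p = 0.158), so the level of Slamf6 as a whole has no settled direction.

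Slamf7, known from natural killer cells, plasma cells and activated myeloid cells, rose from near background. It measured 5.18, 5.84 and 4.68 in wild type, against 8.34, 8.60 and 8.45 in the HDAC3 fl/fl FOXP3cre group. Wild type replicate 3 lay inside the range of the bacterial controls and the wild type mean, 5.23 ± 0.58, just above its top of 5.16, with the widest spread of any group here. The difference was 3.23 (SE 0.26, limma adjusted p = 4.17e-05), a 9.41-fold rise whose size leans on a wild type level close to background.

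Cd244a, the receptor for Cd48 on natural killer cells, some T cells and myeloid cells, appeared from background. Its brighter probe set 1449991_at measured 3.64, 3.37 and 3.22 in wild type, inside the background range, and 8.39, 8.47 and 8.35 in HDAC3 fl/fl FOXP3cre samples. It was at least 9.52-fold higher, measured from the top of the range (limma adjusted p = 5.84e-08). Its other set, 1426120_a_at, measured 4.43, 5.11 and 5.03 against 5.96, 6.35 and 6.02, at least 1.93-fold higher (limma adjusted p = 0.00117). Both sets rose, and since both wild type means lay in the background range, the sizes of the rises are bounds and are not compared.

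Its ligand Cd48, carried by most white blood cells, changed little. It measured 11.81, 11.89 and 11.87 in wild type, against 11.61, 11.60 and 11.60 in the HDAC3 fl/fl FOXP3cre group. The groups did not overlap, and the 1.19-fold fall passed the test (difference -0.25, SE 0.057, limma adjusted p = 0.00715) but not with cyclic loess scaling, where the difference was -0.034 (adjusted p = 0.654).

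Among differences measured above background in both groups, the order from the largest fall was Sh2d1a, Slamf1 1425569_a_at, Slamf1 1425570_at, Slamf6 1425086_a_at, Slamf1 1425571_at, Cd48, Ly9, Slamf6 1420659_at, Cd84 and Slamf7. The 95% intervals of Sh2d1a (-3.14 to -2.83), Cd84 (1.04 to 1.31) and Slamf7 (2.61 to 3.86) overlapped no neighbour in this order. Those of the brightest Slamf1 set (-1.38 to -1.08) and the lower Slamf6 set (-1.14 to -0.82) overlapped, as did those of Ly9 and Cd48. Cd244a has only a bound and is left out of the order.

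**Figure D2:**
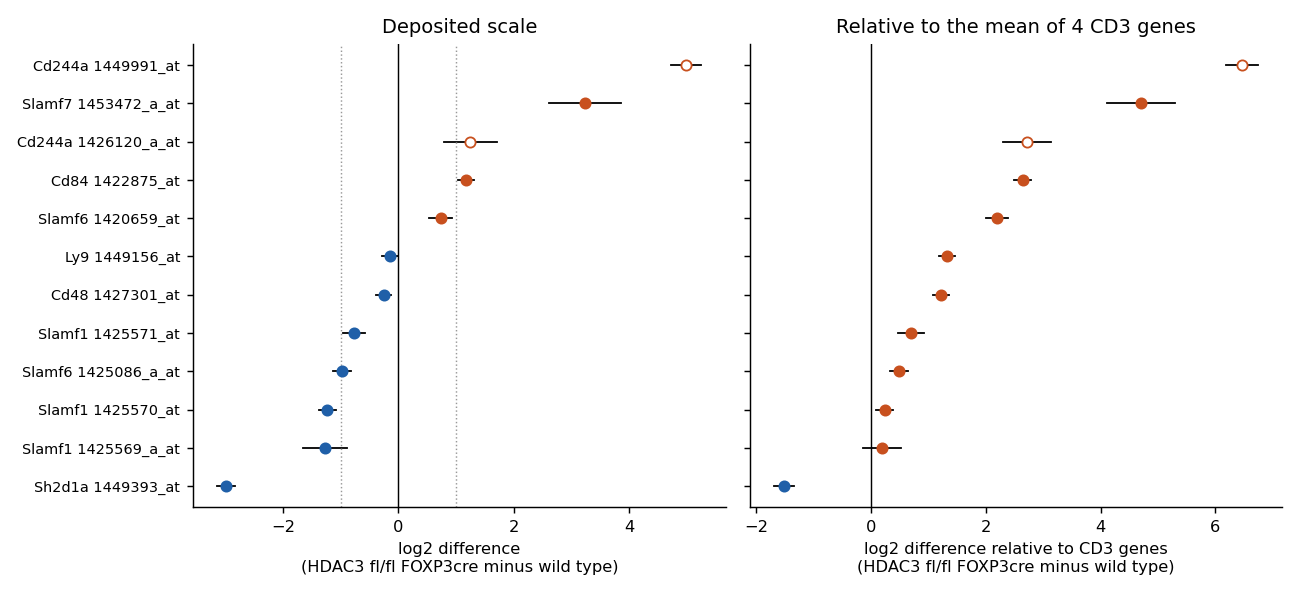
Log2 difference (horizontal axis, HDAC3 fl/fl FOXP3cre minus wild type) of each probe set with its 95% interval, on the deposited scale (left, dotted lines at 2-fold) and relative to the mean of 4 CD3 genes (right). Open circles mark sets whose wild type mean lay in the background range. On the right the Sh2d1a point, at -1.52, lies below 0 and the points of the 3 Slamf1 sets lie at 0.19 to 0.70.

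T cell genes were lower and myeloid genes far higher in the same samples, so each member stands beside those values here. RNA was pooled from all cells of a sample, and fewer cells of a type and less RNA per cell cannot be told apart. The mean of Cd3d, Cd3e, Cd3g and Cd247, the signalling chains of the T cell receptor, was 12.22 ± 0.043 in wild type and 10.75 ± 0.017 in HDAC3 fl/fl FOXP3cre samples, a difference of -1.47. By lead probe set, the brightest of each gene, 22% of all 12393 genes were higher and 38% lower. All 9 measured genes of a T cell surface and lineage list fell, with a median of -1.30, among them Cd27 (-1.77), Lat (-1.53), Bcl11b (-1.46) and Cd5 (-1.30). All 17 measured monocyte and macrophage markers rose past 2-fold, with a median of 7.04, or at least 6.64 with genes at background in wild type set to their bound. Their mean level was 5.46 to 5.49 in wild type and 11.61 to 11.67 in HDAC3 fl/fl FOXP3cre samples, and wild type levels of 10 of the 17 were within the background range. The 12 neutrophil markers also rose, all of them, by a median of 5.78 (at least 4.92 with 8 of them, whose wild type means were background, set to their bound), with mean levels of 4.61 to 4.91 and 10.12 to 10.15. The part of these cells in the rises of Cd84, Slamf7 and Cd244a was not tested.

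With each sample set relative to its CD3 mean, Sh2d1a was still lower, by -1.52 (SE 0.075, 95% interval -1.69 to -1.34, limma adjusted p = 4.28e-07). On that scale 97.8% of all probe sets were higher and 0.831% lower, with a median of 1.30. The fall of Sh2d1a thus exceeded that of the CD3 genes. No Slamf1 set was called lower relative to them. Set 1425570_at was higher by 0.24 (limma adjusted p = 0.00697) and 1425571_at by 0.70 (limma adjusted p = 0.000153). The third set, 1425569_a_at, differed by 0.19 (95% interval -0.14 to 0.53, limma adjusted p = 0.218). The lower Slamf6 set was higher by 0.49 on this scale (adjusted p = 0.000137). Cd48 and Ly9, at 1.21 and 1.33, lay near the median of all probe sets. Of the 12 sets 10 were higher and 1 lower, and 7 were higher past 2-fold beside 80.7% of all probe sets.

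Other cell types that carry these receptors were read from their markers, whose counts stand beside 22% higher and 38% lower among all genes. Of 8 measured natural killer cell markers 6 rose, with a median of 0.85, among them Gzma (3.74) and Nkg7 (1.65), and mean levels of 5.26 to 5.31 and 6.35 to 6.40. Ncr1, a defining natural killer receptor, was not above background in either group, at 3.97 and 3.82, nor was Klra8, at 3.25 and 3.11. Of 5 plasma cell markers 4 rose, with a median of 0.91 and mean levels of 6.73 to 6.76 and 7.71 to 7.72. Jchain rose by 2.50 and Sdc1 by 0.59, while Tnfrsf17 was not above background in either group, at 3.64 and 3.54. Of 10 B cell markers 4 rose and 1 fell, 2 of these 5 within the background range in both groups, with a median of -0.01 (1.73 over the 4 above background in a group, at their bounds) and mean levels of 4.85 to 4.99 and 5.42 to 5.52. Cd22 rose by 2.45 and Blnk at least 6.05-fold, both also expressed outside B cells, and Cd79b, a chain of the B cell receptor, rose by 1.01 (7.29 to 8.30, limma adjusted p = 3.77e-05). The other chain, Cd79a, was 5.48 in wild type and 5.21 in the HDAC3 fl/fl FOXP3cre group (limma adjusted p = 0.0757), and Ms4a1, Pax5 and Ebf1 lay in the background range in both groups. Of 8 dendritic cell markers 4 rose and 1 fell, with a median of 0.28 (3.09 over the 5 above background in a group) and mean levels of 5.92 to 5.99 and 7.44 to 7.52. Irf8 rose by 3.09, Itgax by 4.29, Flt3 by 0.38 and Batf3 at least 36.7-fold, and Ccr7 fell by 0.92, while Zbtb46, Xcr1 and Cd209a lay in the background range in both groups. Of 6 erythroid and platelet markers 3 rose, 1 of them within the background range in both groups. Their median was 0.40 (0.16 over the 4 above background in a group, at their bounds), with mean levels of 4.93 to 5.11 and 5.52 to 5.63. Pf4 rose at least 2.78-fold, while the platelet gene Itga2b differed by 0.12 (limma adjusted p = 0.357). Of the CD8 genes Cd8b1 fell by 1.12 and Cd8a differed by 0.10 (limma adjusted p = 0.475), with mean levels of 6.08 to 6.22 and 5.63 to 5.69. The part of any of these in the members' differences was not tested.

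**Figure D3:**
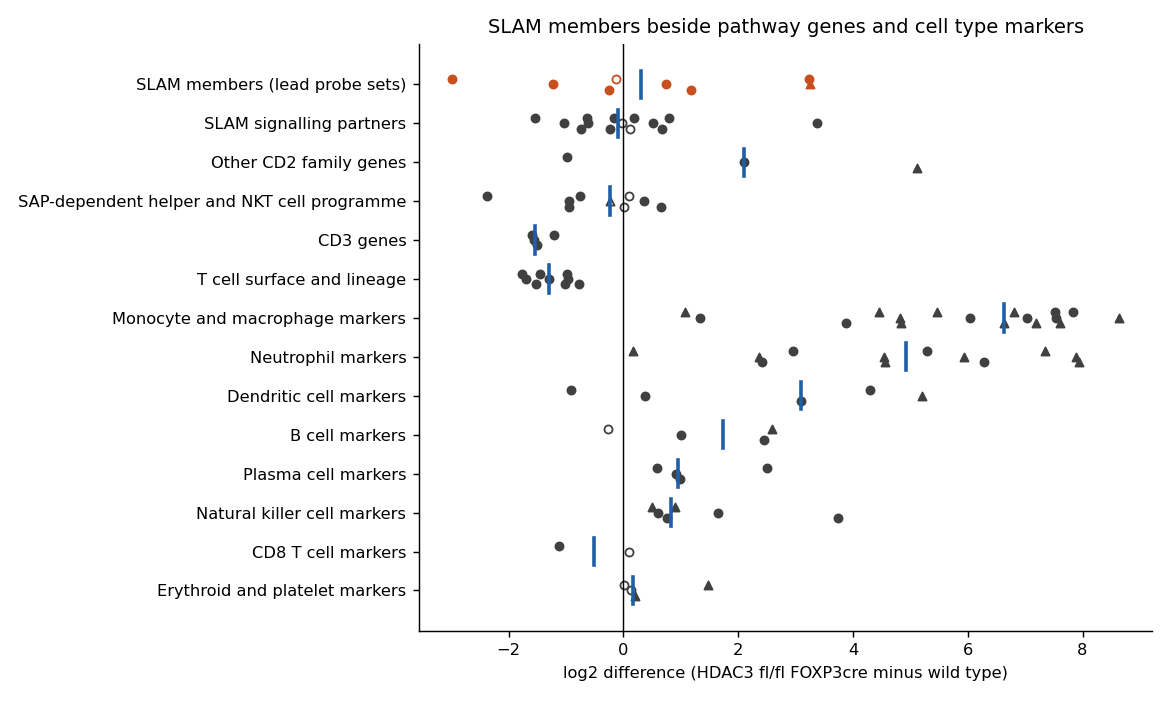
Log2 difference (horizontal axis, HDAC3 fl/fl FOXP3cre minus wild type) of the lead probe set of each gene, with the 8 SLAM members in the top row and the pathway and marker lists below. Filled symbols passed adjusted p 0.05, open ones did not, and a blue bar marks the median of the symbols drawn in a row. Triangles are bounds, for genes with 1 group in the background range, and genes with both groups in it are not drawn. The macrophage row centres on 6.64, the CD3 row on -1.53, and the SLAM row runs from -2.98 (Sh2d1a) to a bound of 3.25 (Cd244a).

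The remaining CD2 family genes on the array, listed beside the members, were Cd2, Slamf8 and Slamf9. Cd2, the second partner of Cd48, fell by 0.99 (12.19 ± 0.051 to 11.20 ± 0.048, limma adjusted p = 1.02e-05). Slamf8, a receptor of macrophages, was at least 34.7-fold higher, from 3.46 in the background range to 10.27 (limma adjusted p = 8.19e-09). Slamf9 rose by 2.10, from 5.52 ± 0.10 to 7.62 ± 0.15 (limma adjusted p = 2.02e-06).

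Signalling partners of SLAM receptors moved both ways. Of 15 measured on 19 listed, 5 were higher and 8 lower, beside 22% and 38% of all 12393 genes. Both counts were above those shares, and no set test was run. The median of -0.16 was near that of all genes, -0.17. Sh2d1b1, Sh2d1b2, Lck and Nfkb1 were listed but not measured. With cyclic loess scaling 5 were lower. Prkcq, a kinase downstream of SAP and Fyn in T cells, fell by 1.54, and Csk, a kinase that restrains Src family kinases, fell by 0.75. Plcg2, a phospholipase of myeloid and B cells, rose by 3.37 and Inpp5d, the lipid phosphatase SHIP, by 0.79. Fyn, named here after its value was seen, measured 10.95 in wild type, against 10.79 in the HDAC3 fl/fl FOXP3cre group, a difference of -0.16 (limma adjusted p = 0.0357) that was 0.05 with cyclic loess (adjusted p = 0.502), so its direction is not settled. Of 11 measured genes tied to SAP-dependent helper and natural killer T cells, 2 rose and 4 fell, with a median of -0.25, near the shares over all genes given above. Icos, a costimulatory receptor of helper cells, rose by 0.66 (limma adjusted p = 9.55e-05), and Cxcr5, the chemokine receptor that brings them into follicles, by 0.35 (limma adjusted p = 0.00263). Pdcd1, an inhibitory receptor of helper cells in germinal centres, fell by 2.37, Bcl6, their lineage factor, by 0.95, Gata3 by 0.94 and Nfatc1 by 0.76. Il4 and Zbtb16, the latter in the background range, differed by 0.01 and -0.06 (limma adjusted p = 0.930 and 0.598).

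All members but Sh2d1a, which is on the X chromosome, sit side by side on chromosome 1, in the RefSeq order Cd244a, Ly9, Slamf7, Cd48, Slamf1, Cd84 and Slamf6. Their lead probe sets changed direction along the cluster more than once, with 4 higher, 2 lower and 1 not called. The 4 include Slamf6, whose other set was lower (-0.98), so its direction is not settled. Slamf1, lower past 2-fold, lies between Cd48, slightly lower, and Cd84, higher past 2-fold. Of the 10 measured neighbours, 5 on each side, 5 were higher, 4 lower and 1 not called, beside 22% higher and 38% lower of all genes. Of the 4 lower, Itln1 and Nhlh1 lay in the background range in both groups. F11r, an adhesion protein gene, was at least 11.2-fold higher and Ncstn, a subunit of gamma secretase, rose by 0.91, while Vangl2 and Pfdn2 fell by 0.46 and 0.54. Copa differed by 0.07 (limma adjusted p = 0.411).

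**Figure D4:**
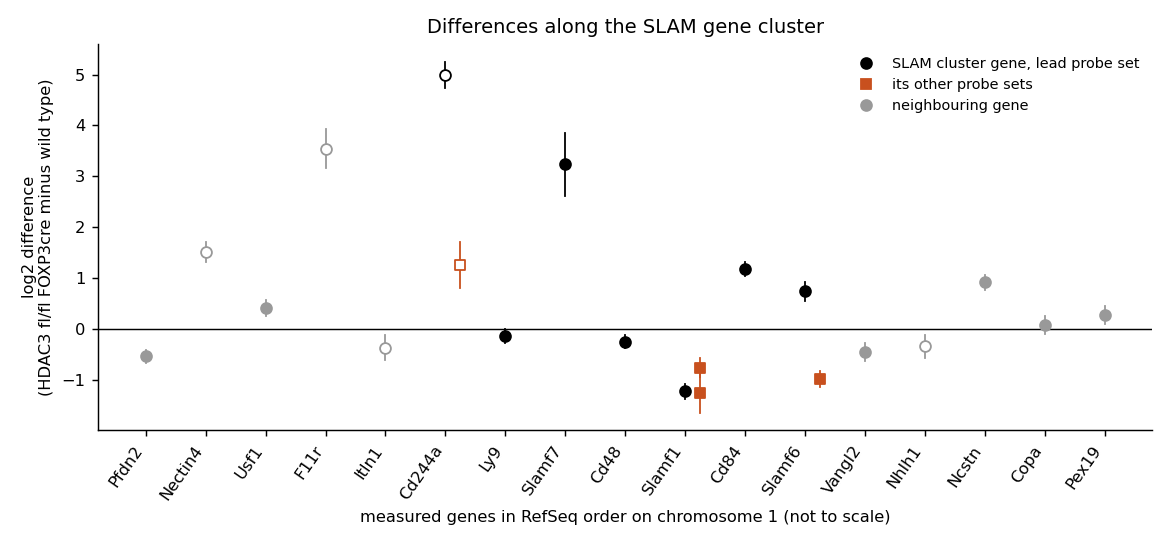
Log2 difference (vertical axis, HDAC3 fl/fl FOXP3cre minus wild type) with 95% intervals of the measured genes around the SLAM cluster, in RefSeq order on chromosome 1 and not to scale. Black points are lead probe sets of cluster genes, orange squares their other probe sets, grey points neighbours, and open symbols have a group in the background range. Cd244a, Slamf7, Cd84 and Slamf6 lie above 0 with their lead sets, and Slamf1, at -1.23, lies below.

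Patterns most like those of the members past 2-fold were ranked by the root mean square distance over the 6 samples, with each gene relative to its wild type mean, among 12393 genes. For Sh2d1a they were Id3 (distance 0.13) and Cd200 (0.15), at differences of -3.16 and -3.17. For Slamf1 they were Clec2i and Phf1 (0.029 and 0.031), for Cd84 Lmo4 and Mfsd1 (0.023 and 0.029), and for Slamf7, among genes above background in both groups, Jdp2 (0.23). Cd244a was given none, because its wild type level lies in the background range. The closeness rests mainly on the size of 1 difference between 2 groups.

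As for the series, Hdac3 itself was lower by 0.55 (9.04 ± 0.028 to 8.49 ± 0.024, limma adjusted p = 0.000125), less than the CD3 genes, and where its probe set sits relative to the floxed part is not known here. Il2ra, which encodes CD25, was 9.25 ± 0.047 and 9.96 ± 0.022, and Cd4 was 10.19 ± 0.048 and 9.17 ± 0.057. Foxp3 was not above background in either group, at 3.77 and 3.68, so the regulatory T cell label could not be read from it. Correlations over probe sets were 0.996 to 0.998 within groups and 0.921 to 0.923 between them. Of all probe sets past 2-fold 64.6% were higher, while median centring gave 50.7% and cyclic loess 77.8%. The median difference of all probe sets, -0.17, was -0.33 after median centring and -0.00063 after cyclic loess, so the members' differences shift with it by a like amount: Cd84 stood at 1.01 and 1.38.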

How the data were processed

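Each sample's biotin-labelled RNA was read on 1 Affymetrix array. The deposited values are log2 intensities per probe set, which the authors normalised by RMA with MAYDAY 2.12, per the labels' design text. Array medians were 6.28 to 6.29 in wild type and 6.43 to 6.47 in the other group, so the deposited arrays do not share 1 distribution. RNA per cell cannot be read from these values. The number of arrays limits the precision.

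Groups came from sample titles. Without the array's 64 control sets, 22626 probe sets were fitted together with limma 3.58.1 (lmFit and eBayes, R 4.3.3), two-sided, with Benjamini-Hochberg adjustment over all of them. The thresholds, adjusted p 0.05 and 2-fold, are those the authors named. A gene's lead probe set is its brightest 1-symbol set by the mean of the 6 samples. Background is the range of 27 bacterial control probe sets, and a fold against a group mean inside it is "at least", from its top. The members and lists were chosen with earlier results of these data known. Named beside the members are Hdac3, Foxp3, the CD3 genes, the CD2 family, up to 4 genes per list with the smallest p, cluster neighbours and nearest patterns; other names were chosen after their values were seen. On simulated data, independent normal values were drawn for 22626 probe sets, with 50 changed at each size and 22426 unchanged. The fit recovered 44%, 82%, 100% and 100% of true changes of 0.5, 1, 2 and 4 log2. It made 9 false calls among the unchanged sets. The real data had 4559 sets called higher and 8473 lower, and those calls shift with scaling. The simulation held neither feature, so its rates cannot be carried over to the real calls. Plots used Python 3.11.15. Alternatives were the methods' t-test, cyclic loess, median centring, a second quantile normalization, array weights, a trended robust prior, a replicate block, a filter on the dimmest 33.3% of sets, each sample left out, 1.5-fold, and averaging the sets of a gene.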

Additional observations from a re-analysis of the deposited data

How the results depend on the processing

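Of the 12 member differences, 8 kept their direction and their side of adjusted p 0.05 under all 15 alternatives that give a difference. They are those of Sh2d1a, Cd84, Slamf7, both Cd244a sets and the 3 Slamf1 sets. Sh2d1a ranged from -3.14 to -2.79, Cd84 from 1.01 to 1.38 and Slamf7 from 2.96 to 3.54. Cd48 was -0.034 with cyclic loess (adjusted p = 0.654). Ly9 was 0.065 with cyclic loess, and it was called lower with median centring (-0.30, adjusted p = 0.00296) and, at -0.14, with the methods' test (adjusted p = 0.0266), without the dimmest probe sets (0.0386) and with the trended robust prior (0.0148). With the sets of a gene averaged Slamf6 was -0.12, against 0.73 and -0.98 for its sets, and 3 member genes were higher and 3 lower at adjusted p 0.05. At 1.5-fold 5 member sets were lower, and leaving out a sample gave 3 or 4 lower past 2-fold. With cyclic loess 5 SLAM signalling partners were lower. Over all features, 8473 were lower, but 13029 after median centring and 4960 after cyclic loess, and past 2-fold 979 against 1523 and 609. At 1.5-fold 2784 were higher and 3057 lower, and with averaged sets 2618 were higher and 4984 lower, 1024 and 486 of them past 2-fold, with fewer features tested. Causes were not tested. The replicate numbers are only names: deviations of same-numbered samples correlated at 0.092, 0.084 and -0.19, and a fit with a replicate block gave 5 member sets higher and 6 lower, as without it. Low signal limits Cd244a and Slamf7 in wild type.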
